A study of Mus musculus with 2 samples.

Results

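Semaphorins are guidance ligands, plexins are their signalling receptors, and neuropilins are co-receptors that bind secreted semaphorins and members of the VEGF family. The genes were chosen by symbol: every gene named Sema with a class number, Plxna, Plxnb, Plxnc or Plxnd with a number, the plexin domain containing genes Plxdc1 and Plxdc2, and Nrp1 and Nrp2. This gave 33 genes of the 18193 measured, made up of 20 semaphorins, 9 plexins, 2 neuropilins and 2 plexin domain containing genes, read by 83 probe sets. Plxna4os1 shares its first letters with a plexin but is an antisense RNA, and it was set aside (signals 2.3 and 17.6).

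The study measured PGK12.1, a female mouse embryonic stem cell line derived from blastocysts of a 129 female and a (129 X PGK)F1 male. One array held undifferentiated cells (day 0), and the other held PGK12.1 cells differentiated for 15 days as embryoid bodies, which are aggregates in which several lineages form. Both came from stem cells grown with leukemia inhibitory factor on mouse embryonic fibroblast (MEF) feeders, and the feeders were depleted by a short incubation on gelatin before collection or differentiation. The line is a single one, and with 1 array per condition there was neither replicate error nor any p-value, so every difference below is described by its size.

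In the textbook scheme, class 3 semaphorins are secreted and act through a complex in which a neuropilin binds the ligand and a class A plexin carries the signal. Classes 4 to 6 span the membrane, class 7 is held by a lipid anchor, and most of these bind plexins without a neuropilin. The plexin's cytoplasmic part switches off small GTPases of the Ras and Rap kind and so alters adhesion and the actin cytoskeleton. The family is best known from axon guidance and also acts in vessel, heart and bone development.

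Signals were deposited as linear intensity, 1 value per probe set and array. A gene is represented by its single-gene probe set with the highest mean log2(signal + 16) over both arrays, and its log2 difference is the day 15 value less the undifferentiated one. The added 16 damps the differences of dim genes. Folds are plain ratios of signals. The 15 control probe sets for bacterial genes (Phe, Thr, Trpn), taken as having no target RNA here, read 35.6 or less. A fold with its dimmer signal under that level is a lower bound, computed against 35.6 and written "at least", and pairs of signals both under it get none. A gene counted as above the expression filter when its mean reached the all-probe-set median, which corresponds to a signal of about 36.5. The number of arrays limits the precision.

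At day 15, 15 of the 33 genes measured at least 2-fold higher, among them Nrp1, Sema6d, Plxnb2 and 4 secreted class 3 semaphorins, while Sema4d and Sema6c measured at least 2-fold lower. Over all 33 members, 15 (45.5%) were at least 2-fold higher on the log2(signal + 16) scale, against 12.8% of all 18193 measured genes, and 2 (6.06%) were at least 2-fold lower, against 7.56%. The median log2 difference was 0.70 over the 33 members and -0.02 over all measured genes. Above the filter were 30 members, of which 14 were higher (16.5% of the 11960 genes above it were), 2 were lower (8.41% of genes were) and 14 lay within 2-fold. Sema3d, Sema3g and Sema5a lay below the filter. On the undifferentiated array 11 of the 33 members read at or below 35.6, against 1 at day 15. Of all 18193 measured genes, 6391 did so on the undifferentiated array and 6010 at day 15. The 11 members included 7 of the 14 higher ones. Among the 22 members above 35.6 on both arrays, 7 were at least 2-fold higher, where 13.2% of 10918 genes were, and 2 lower, where 8.34% were.

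**Figure D1:**
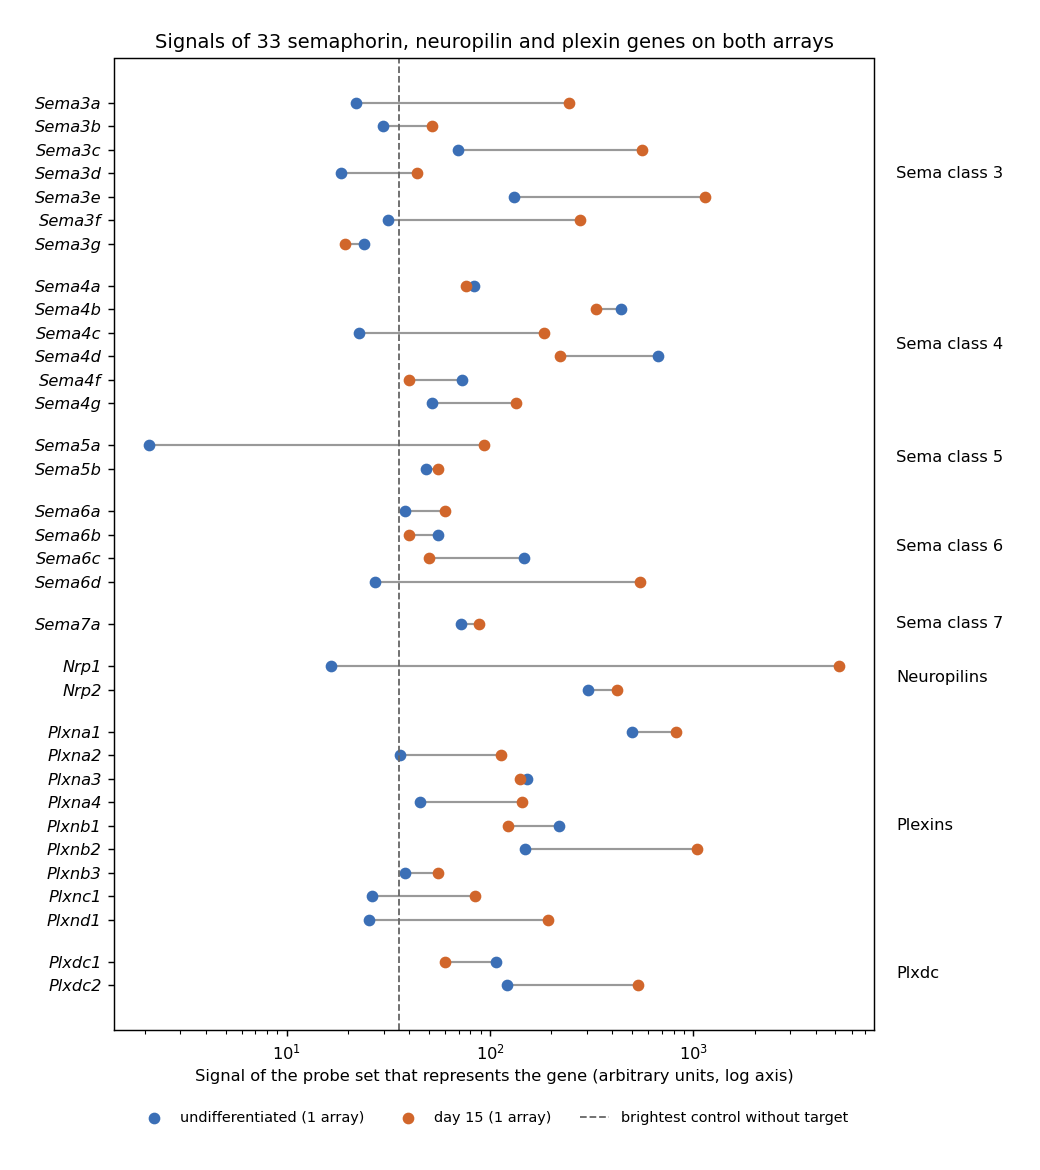
Signal of the probe set that represents each of the 33 genes, on a log axis in arbitrary units, with 1 blue point for the undifferentiated array and 1 orange point for the day 15 array, grouped by class. The dashed line is the brightest bacterial control without target (35.6). Nrp1 runs from 16.6 to 5213, Sema4d and Sema6c lie to the left at day 15, and 11 blue points lie at or below the line.

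Nrp1, which binds SEMA3A and VEGF-A, had the largest difference of the family. The signal went from 16.6 before to 5213 after differentiation (at least 146-fold), a log2 difference of 7.33. The undifferentiated signal was below the controls without target. Of its 4 probe sets, 3 gave differences of this order: the others of that kind read 31.2 and 2450 (at least 68.8-fold) and 17.2 and 1941 (at least 54.5-fold). The remaining probe set read 44.0 and 44.9 and so did not follow them. Nrp2, the neuropilin that binds SEMA3F, lay within 2-fold at 303 and 423 (1.40-fold higher). It was already well above the controls before differentiation. Its other probe sets above the filter had larger differences, at 108.5 and 221.9 (2.05-fold) and at 72.3 and 260 (3.60-fold). In undifferentiated cells 3 of the 4 Nrp1 probe sets thus read below the controls, whereas 3 of the 4 Nrp2 probe sets read above them.

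The promoter window of Nrp1 is shown because this gene carried the largest difference. Promoter windows run from 250 bases before to 50 bases after a RefSeq transcription start on assembly GRCm38.p6, and 26 of the 33 members matched an entry. The motif GGGCGG, the GC box known to bind Sp1-type factors, is in capitals on either strand (GGGCGG or CCGCCC). It was present in 20 of the 26 members' first listed windows (76.9%), against 35.7% of all 32851 windows of the table, which also holds noncoding and predicted genes. TATAAA, searched on both strands, was in 0 of the 26 windows and in 13.6% of all. The members' windows held a median of 23 CG dinucleotides, against 7 over all windows. A match here is a description of letters and not a binding site.
Nrp1 (GRCm38.p6 chr8:128358823-128359122, plus strand): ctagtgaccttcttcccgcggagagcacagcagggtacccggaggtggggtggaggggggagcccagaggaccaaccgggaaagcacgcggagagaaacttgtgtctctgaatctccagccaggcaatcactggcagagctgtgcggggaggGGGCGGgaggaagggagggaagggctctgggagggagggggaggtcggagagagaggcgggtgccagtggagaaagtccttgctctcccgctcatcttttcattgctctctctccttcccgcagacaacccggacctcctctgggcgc

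The secreted class 3 semaphorins were the class with the most members at least 2-fold higher, 4 of 7, and none was at least 2-fold lower. Of all 18193 measured genes 12.8% were higher and 7.56% lower. Over all 7 the median log2 difference was 2.62. Sema3e, whose product binds plexin D1 without a neuropilin, read 131 before and 1137 after differentiation (8.67-fold higher). All 4 of its probe sets were higher at day 15, with log2 differences of 2.58 to 3.17. Sema3c, needed for outflow tract septation in the heart, read 69.7 and 559 (8.02-fold), while its other probe set read 42.9 and 83.9 (1.96-fold). Sema3a, the first vertebrate growth cone collapsing factor described, read 22.0 and 243.6 (at least 6.84-fold). A further Sema3a probe set above the filter read 5.2 and 170.2 (at least 4.78-fold). Thus Sema3c and Sema3e were above the controls before differentiation and Sema3a was not. Sema3f, the NRP2 ligand, read 31.6 and 277 (at least 7.78-fold) by a probe set of suffix x, which can bind related transcripts. Another Sema3f probe set, of suffix a, read 11.8 and 127 (at least 3.58-fold), and the one without a suffix read 17.4 and 27.2, both below the controls. The remaining members were dim. Sema3b, a ligand with reported tumour suppressor activity, read 29.6 and 51.8 (at least 1.46-fold), Sema3d 18.5 and 43.5 (at least 1.22-fold), and Sema3g, known from endothelium, 23.9 and 19.3.

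Sema3d, Sema3a, Sema3e and Sema3c lie in that order on chromosome 5 in RefSeq, within a stretch of 22 protein-coding genes. Of the 18 other genes there, most of them predicted genes or Speer family copies, 5 were measured and 2 lay above the filter. Cacna2d1, a calcium channel subunit gene, read 38.3 and 396.5 (10.4-fold higher), and Hgf, the ligand of the MET receptor, read 41.7 and 81.6 (1.96-fold). Pclo, a presynaptic scaffold gene, read 32.7 and 25.7, below the controls on both arrays. The promoter windows of the 3 semaphorin genes of this stretch that were at least 2-fold higher are shown for comparison. Their log2 differences lay between 2.75 and 2.97. The Sema3a window holds 2 CG dinucleotides and no GGGCGG, the Sema3e window 11 and 2, and the Sema3c window 42 and 3. Under the main setting these semaphorin genes had like differences, and the base composition at their starts was unlike. With a pseudocount of 64 the differences were 1.84 (Sema3a), 2.62 (Sema3e) and 2.22 (Sema3c). With the mean over probe sets they were 2.30, 2.92 and 1.75, in the same order of genes.
Sema3a (GRCm38.p6 chr5:13396534-13396833, plus strand): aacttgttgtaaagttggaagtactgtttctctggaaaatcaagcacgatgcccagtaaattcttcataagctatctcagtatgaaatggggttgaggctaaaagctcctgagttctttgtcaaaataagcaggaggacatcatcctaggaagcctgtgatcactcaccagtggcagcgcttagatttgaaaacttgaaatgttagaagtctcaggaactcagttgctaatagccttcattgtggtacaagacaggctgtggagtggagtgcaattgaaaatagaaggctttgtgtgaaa
Sema3e (GRCm38.p6 chr5:14025026-14025325, plus strand): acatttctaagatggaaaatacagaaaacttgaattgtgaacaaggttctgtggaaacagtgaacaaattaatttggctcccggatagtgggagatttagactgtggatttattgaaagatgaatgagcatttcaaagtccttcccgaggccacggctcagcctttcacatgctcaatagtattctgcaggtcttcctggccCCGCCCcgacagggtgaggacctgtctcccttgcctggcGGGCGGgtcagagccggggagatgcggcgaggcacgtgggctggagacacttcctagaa
Sema3c (GRCm38.p6 chr5:17574566-17574865, plus strand): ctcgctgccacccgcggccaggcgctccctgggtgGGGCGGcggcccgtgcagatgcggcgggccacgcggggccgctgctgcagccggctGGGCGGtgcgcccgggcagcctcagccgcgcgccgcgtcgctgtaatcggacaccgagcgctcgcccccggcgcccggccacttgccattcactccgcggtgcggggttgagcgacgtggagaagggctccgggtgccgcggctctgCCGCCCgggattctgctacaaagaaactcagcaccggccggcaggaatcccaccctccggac

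The class 4 transmembrane semaphorins split by gene. Sema4d, also known as CD100, an immune cell and guidance ligand that binds plexin B1, read 672.5 before and 222 after differentiation (3.03-fold lower). It had the largest loss of the family, a log2 difference of -1.53, and all 3 of its probe sets were lower at day 15; the second above the filter read 124 and 6.5 (at least 3.48-fold lower). Sema4d was still well above the controls at day 15. Sema4c, a ligand of plexin B2, read 22.7 and 183.5 (at least 5.15-fold higher) by its only probe set. Sema4g read 52.1 and 133.5 (2.56-fold higher), also by its only probe set, a difference that fell below 2-fold with quantile normalization (log2 difference 0.86) and with scaling on the hybridization controls (0.79). The other class 4 genes lay within 2-fold. Sema4b read 443 and 332.5 (1.33-fold lower) and Sema4f 73.2 and 40.0 (1.83-fold lower). Their other probe sets, below the filter, read 26.6 and 4.4 for Sema4b and 21.8 and 36.8 for Sema4f. For Sema4a the probe sets differed in size: the representing one, of suffix x, read 83.5 and 76.5, and the other read 80.8 and 22.6 (at least 2.27-fold lower).

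Sema4d has 3 RefSeq starts with a promoter window, and the first listed is shown because this gene had the largest loss. It holds 3 CG dinucleotides and no GGGCGG, and the windows of the other starts hold 2 and 3 CG dinucleotides, with GGGCGG 1 time in the last. The counts varied among genes of either direction. The first Sema6c window, also of a lower gene, holds 23 CG dinucleotides and GGGCGG 3 times. That of Sema3a, a higher gene, holds 2 and none. Among members above the filter, GGGCGG was in 10 of 11 first windows of higher genes and in 1 of 2 of lower ones. It was in 7 of 10 of those within 2-fold.
Sema4d (GRCm38.p6 chr13:51748761-51749060, minus strand): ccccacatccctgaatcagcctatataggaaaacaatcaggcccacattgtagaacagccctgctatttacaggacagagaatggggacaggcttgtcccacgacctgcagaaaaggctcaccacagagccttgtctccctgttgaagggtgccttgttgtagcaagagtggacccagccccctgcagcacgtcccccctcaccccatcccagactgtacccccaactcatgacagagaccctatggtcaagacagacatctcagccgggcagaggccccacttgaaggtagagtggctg

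Class 6 held the second-largest gain and the second-largest loss of the family. Sema6d, which acts with plexin A1 in heart development, read 27.1 before and 549 after differentiation (at least 15.4-fold higher). Its 4 probe sets did not behave alike. A second one above the filter read 32.0 and 90.7 (at least 2.55-fold higher), and those below the filter read 35.7 and 25.1, and 20.5 and 25.0. Sema6c read 146.8 and 50.0 (2.94-fold lower), and its other probe sets were also lower, at 63.0 and 33.2 (at least 1.77-fold) and at 30.1 and 15.8. The 2-fold call of Sema6c was lost with a pseudocount of 64 (log2 difference -0.89), with the mean over probe sets (-0.84) and without suffixed (a, s, x) probe sets (-0.54), and its sign held. Sema6a, a ligand of plexins A2 and A4, read 38.4 and 60.1 (1.57-fold higher), and Sema6b read 55.8 and 39.8 (1.40-fold lower). Both lay close to the control level on each array.

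The first of the 2 Sema6d starts in the table is shown because Sema6d had the largest difference among the semaphorins. It holds 14 CG dinucleotides and GGGCGG 2 times, and the window of the second start holds 6 and none.
Sema6d (GRCm38.p6 chr2:124089719-124090018, plus strand): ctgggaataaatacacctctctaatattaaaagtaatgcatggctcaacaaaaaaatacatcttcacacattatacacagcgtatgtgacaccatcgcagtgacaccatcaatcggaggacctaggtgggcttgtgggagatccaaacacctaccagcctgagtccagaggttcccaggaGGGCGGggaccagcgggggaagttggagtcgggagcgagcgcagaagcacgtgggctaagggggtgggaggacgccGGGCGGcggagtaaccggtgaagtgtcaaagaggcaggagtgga

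Class 5 and class 7 genes above the filter lay within 2-fold. Sema5a, a transmembrane ligand with thrombospondin repeats, read 2.1 and 93.5 (at least 2.63-fold higher) but lay below the filter, and its other 3 probe sets read at most 33.6 on either array. Sema5b read 48.4 and 55.4 (1.14-fold higher), a difference that turned negative with quantile normalization (-0.04) and with scaling on the hybridization controls (-0.14). Sema7a, the lipid-anchored member that binds plexin C1 and beta1 integrin, read 71.8 and 88.0 (1.23-fold higher) and likewise turned to -0.05 and -0.08 under those scalings. Its other probe set read 1.5 and 1.8, below the controls, and with the mean over probe sets Sema7a lay below the filter.

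Among the 9 plexins, all above the filter, 5 were at least 2-fold higher, from 4 subfamilies, and none was at least 2-fold lower. Of all genes above the filter 16.5% were higher and 8.41% lower. Plxnb2, the SEMA4C receptor, had the largest difference, with signals of 148 and 1048 (7.07-fold), by its only probe set. Plxnd1, the SEMA3E receptor that is known from endothelium, read 25.5 and 191.9 (at least 5.39-fold), also by 1 probe set. The undifferentiated signal of Plxnd1 was below the controls and that of Plxnb2 was not. Plxna4, which partners neuropilins and also binds class 6 semaphorins, read 45.1 and 144 (3.19-fold), and its other probe set read 28.6 and 71.5 (at least 2.01-fold). Plxna2, a class A receptor, read 36.0 and 113.2 (3.14-fold), a further probe set above the filter read 12.3 and 94.5 (at least 2.65-fold higher), and one, also above it, went the other way at 54.5 and 26.9 (at least 1.53-fold lower). Plxnc1, the SEMA7A receptor, read 26.4 and 84.3 (at least 2.37-fold), but its other 5 probe sets read at most 29.3 on either array, below the controls. With the mean over probe sets Plxnc1 had a log2 difference of 0.02. With a pseudocount of 64, 2 plexins were at least 2-fold higher, where 12.9% of genes above the filter were. Plxna2 (0.83), Plxna4 (0.93) and Plxnc1 (0.71) fell short there. With scaling on the hybridization controls 3 plexins were higher and 1 lower, where 11.3% and 18.8% of genes were. Plxna2 (0.98) and Plxnc1 (0.92) fell short under that scaling.

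The other 4 plexins lay within 2-fold on the deposited scaling. Plxna1, which pairs with neuropilins and binds SEMA6D, read 500 and 824 (1.65-fold higher), while its other probe set read 21.8 and 10.5, below the controls. Plxnb1, the SEMA4D receptor, read 219 and 122 (1.79-fold lower), while its other probe set read 74.3 and 75.2. Quantile normalization brought Plxnb1 to -1.07 and scaling on the hybridization controls to -1.11, past 2-fold. The X-linked members are Plxna3, a neuropilin-associated class A plexin, and Plxnb3, a SEMA5A receptor. Plxna3 read 152 and 140 (1.09-fold lower), with a second probe set at 100.9 and 63.3 (1.59-fold lower), and Plxnb3 read 38.3 and 55.6 (1.45-fold higher) by a probe set of suffix s, while its other one read 24.5 and 16.2, below the controls. Neither X-linked member reached 2-fold by any of its probe sets.

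The plexin domain containing genes share an extracellular domain with plexins but are not semaphorin receptors in the textbook scheme; both encode receptors for pigment epithelium-derived factor. Plxdc2 read 121 before and 533 after differentiation (4.42-fold higher). Its other probe sets were also higher, at 38.9 and 122.8 (3.16-fold) and at 25.4 and 51.0 (at least 1.43-fold). Plxdc1, also known as tumour endothelial marker 7, read 107 and 60.3 (1.78-fold lower), while its second probe set, below the filter, read 10.6 and 40.3 (at least 1.13-fold higher).

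**Figure D2:**
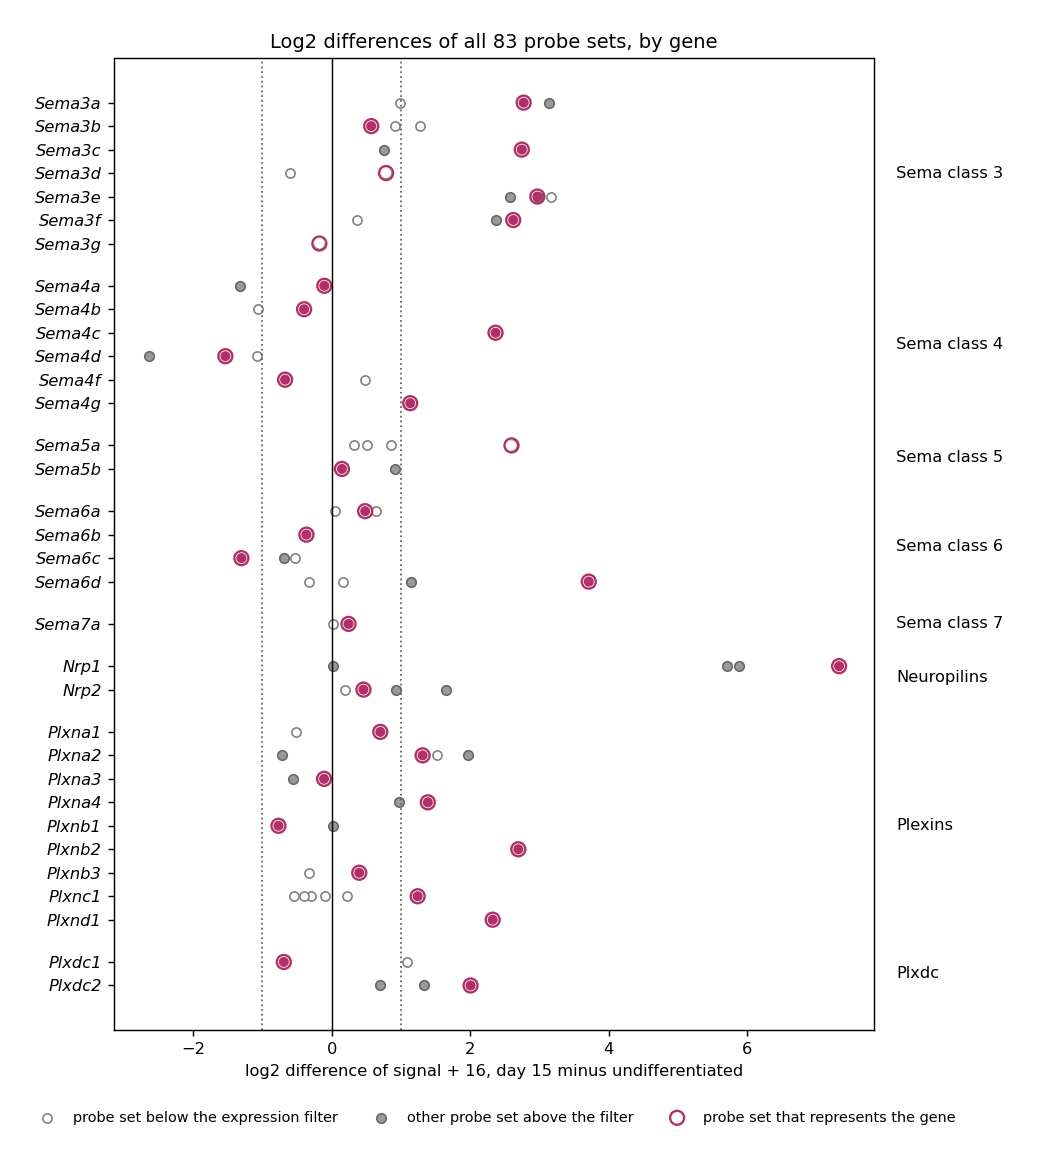
Log2 difference of signal + 16, day 15 minus undifferentiated, for each of the 83 probe sets, by gene. Ringed magenta points are the probe sets that represent the genes (open where below the filter), grey points are other probe sets above the filter, and open grey points lie below it. Dotted lines mark 2-fold. In Nrp1, 3 probe sets lie at 5.71 or more and the other at 0.02, and Plxna2 has probe sets above the filter on both sides of 0.

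Several probe sets lay above the filter for 16 members, of which 2 (12.5%) had such probe sets of opposite sign, Plxna2 and Plxnb1. Over all genes, 5157 had several such probe sets, of which 1552 (30.1%) had opposite signs, and the log2 differences of probe sets of the same gene had a pooled SD of 0.53. Probe sets of 1 gene read the same RNA extract and are not replicates, and this SD holds no variation between cultures.

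Known ligand and receptor pairs were set side by side, using 14 textbook pairs that were listed once the values were known. The list held Sema3a, Sema3c, Sema3e and Sema3f, the class 3 genes at least 2-fold higher, and left out Sema3b, Sema3d and Sema3g. Sema4b, Sema4f, Sema4g, Sema5b, Sema6b and Sema6c were also left out, so the counts of pairs partly follow from the choice of ligands. Of single genes above the filter, 16.5% were higher and 8.41% lower, and a like share for pairs was not computed. Both genes were above the filter in 13 pairs. In 4 of these both were at least 2-fold higher at day 15: Sema3a with Nrp1, Sema3c with Nrp1, Sema3e with Plxnd1, and Sema4c with Plxnb2. The pairs share genes, so they are not independent. In 7 pairs 1 gene was at least 2-fold higher and the other within 2-fold. In 3 of these the ligand was the higher one (Sema3f and Sema3c with Nrp2, Sema6d with Plxna1), and in 4 it was the receptor (Sema4a with Plxnd1, Sema6a with Plxna2 and with Plxna4, Sema7a with Plxnc1). Sema4d, which was lower, was set beside the plexins Plxnb1, with a log2 difference of -0.77, and Plxnb2, with 2.69. Its lymphocyte receptor gene Cd72, which is no plexin, read 36.0 and 50.0 (1.39-fold higher). In the pair of Sema5a and Plxnb3 the ligand lay below the filter. Array signals of different probe sets are not comparable in level, so these are pairs of differences only.

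**Figure D3:**
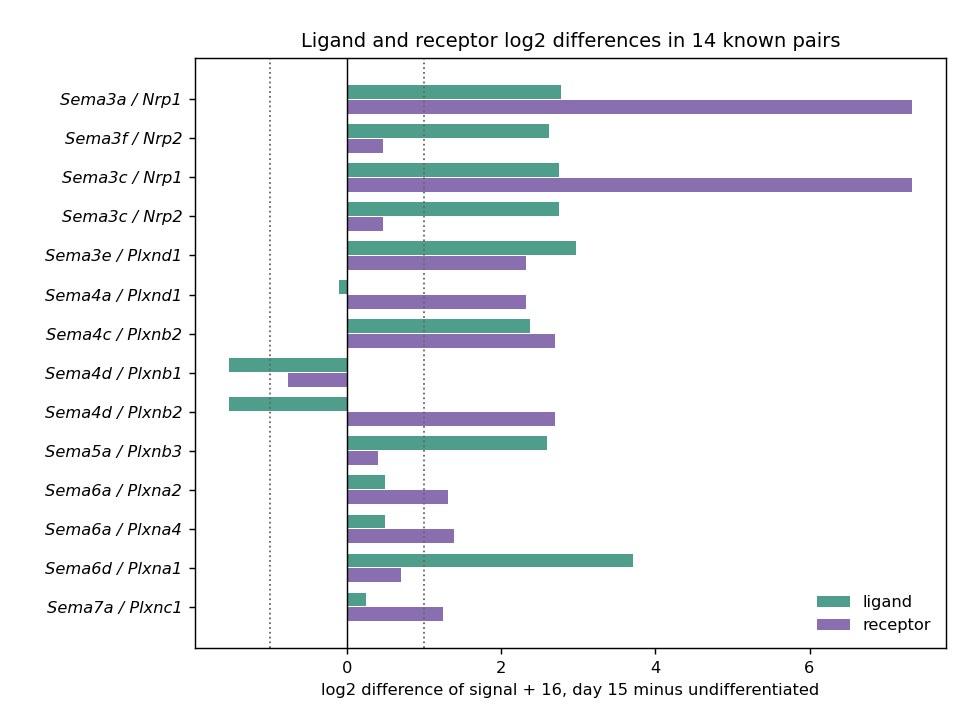
Log2 differences of signal + 16, day 15 minus undifferentiated, of the ligand (green bar) and the receptor (violet bar) in 14 textbook pairs, 1 value per gene and no error. Dotted lines mark 2-fold. Sema3e and Plxnd1 (2.97 and 2.32) and Sema4c and Plxnb2 (2.37 and 2.69) have bars of like length, whereas Sema4d and Plxnb2 (-1.53 and 2.69) point apart.

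Other genes of the pathway were taken from 3 lists of partner receptors, of neuropilin ligands and ligand processing, and of cytosolic effectors. Of 65 listed genes 62 were measured and 56 lay above the filter, of which 26 were at least 2-fold higher and 0 lower, with a median log2 difference of 0.86 beside 0.00052 over all genes above the filter, of which 16.5% were higher and 8.41% lower. Without the filter 27 of 62 were higher and 1 lower, where 12.8% and 7.56% of all measured genes were. The genes so added were the partner receptors Mst1r (5.7 and 27.6, below the controls on both arrays) and Trem2. Trem2 was the lower one, at 56.6 and 9.1 (at least 1.59-fold). Scaling on the hybridization controls gave 18 higher and 2 lower of the 56 listed genes above its filter, where 11.3% and 18.8% of all genes were, and the mean over probe sets gave 17 and 0 of 50.

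Among neuropilin ligands and processing enzymes 6 of 8 were at least 2-fold higher and 0 lower. Of all genes above the filter 16.5% were higher and 8.41% lower. The VEGF genes were Vegfd (96.2 and 623.9, 6.49-fold), Vegfa (141 and 571, 4.04-fold) and Vegfc (150 and 569, 3.79-fold), and the placental growth factor gene Pgf read 27.2 and 222 (at least 6.25-fold). Furin, the protease that cleaves class 3 semaphorins, read 143 and 688.5 (4.81-fold), and the related convertase gene Pcsk5 read 17.6 and 150.6 (at least 4.23-fold). Vegfb and Pcsk6 lay within 2-fold, at 167.5 and 265.8 and at 406 and 255.

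Of 18 partner receptor genes 12 lay above the filter. Of these 5 were at least 2-fold higher and 0 lower, where 16.5% and 8.41% of all genes above the filter were. Met, which associates with class B plexins, read 46.9 and 235.5 (5.02-fold), and Erbb2, another class B plexin partner, read 62.1 and 152.8 (2.46-fold). Flt1, a VEGF receptor, read 27.4 and 109.6 (at least 3.08-fold), Itgb1, the beta1 integrin that SEMA7A binds, 1276 and 2817 (2.21-fold), and the myeloid adaptor gene Tyrobp 13.2 and 98.4 (at least 2.76-fold). L1cam, the adhesion molecule that partners NRP1 in neurons, read 106.3 and 112.1. Kdr, the main VEGF receptor, read 50.8 and 105.4 and stayed short of 2-fold on the log2(signal + 16) scale (0.86).

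Among the 36 measured cytosolic effectors 15 were at least 2-fold higher and 0 lower, where 16.5% and 8.41% of all genes above the filter were. The count was 8 and 0 with the mean over probe sets (13% and 6.56% of genes) and 9 and 1 with scaling on the hybridization controls. Farp1, a guanine nucleotide exchange factor that binds plexins, read 36.2 and 1063 (29.4-fold), the largest difference of the list, and its relative Farp2 read 28.3 and 85.7 (at least 2.41-fold). Mical2, of the family of actin-oxidising enzymes that act below plexins, read 14.4 and 289 (at least 8.12-fold), and Rnd3, a gene of a small GTP-binding protein, read 359 and 2246 (6.26-fold). The collapsin response mediator Dpysl2, named for its part in the SEMA3A response, read 914 and 4005 (4.38-fold) and Dpysl3 397 and 1151 (2.90-fold). Relatives expressed in neurons, Crmp1 (344 and 191) and Dpysl5 (58.4 and 29.4), lay within 2-fold on the lower side. The exchange factor Trio read 94.8 and 513 (5.41-fold), the cofilin phosphatase gene Ssh1 282 and 1338 (4.74-fold), Rras, the small GTPase that plexins switch off, 183 and 701 (3.83-fold), and Tns2 8.5 and 106.5 (at least 2.99-fold). The others were Sh3bp1 (2.57-fold), Fyn (2.37-fold), Gsk3b (2.19-fold), Rras2 (2.02-fold) and Cdk5r1 (at least 2.42-fold). Other probe sets of some of these genes did not follow. Of 4 Ssh1 probe sets above the filter 1 was lower, with a log2 difference of -0.61. Below the filter, probe sets of Farp1 (-0.11), Dpysl2 (-0.24) and Gsk3b (-1.20) were also lower. Rac1 (3903 and 5421), Rhoa (2427 and 3018) and Cfl1 (8843 and 7517) lay within 2-fold.

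In bulk samples, a higher share of cells of a type and more RNA per cell cannot be told apart. Markers of several cell types differed between the arrays. Counts of higher and lower markers here are at 2-fold and over all measured genes of a list, with or without passing the filter. Of all 18193 measured genes, 12.8% were at least 2-fold higher and 7.56% at least 2-fold lower. Of 9 measured fibroblast and mesenchyme markers 8 were at least 2-fold higher, and their summed signal was 387 before and 31962 after differentiation. On the undifferentiated array 5 of these 9 lay at or below 35.6, among them Col1a1 (17.2). Of 5 smooth muscle markers 4 were higher (summed signal 757 and 19570, with Myh11 below the controls on both arrays), as were 5 of 6 visceral endoderm markers (124.9 and 3345) and 2 of 6 cardiac markers (294.8 and 2023). Of 8 endothelial markers 2 were at least 2-fold higher, Cdh5 (11.7 and 45.5) and Cldn5 (19.9 and 59.7), both below the filter, and 2 were lower (summed signal 700 and 505), while Tie1 read 8.8 and 1.1. Of 10 neuron markers none was at least 2-fold higher and 3 were at least 2-fold lower (summed signal 5855 and 3415). Dcx and Snap25 read below the controls on both arrays. Stmn2 (3787 and 2174.5), within 2-fold, held most of both sums. Gap43 (350 and 497) and Elavl3 (42.2 and 43.3) had a higher signal at day 15. Of 5 leukocyte markers 2 were higher (1049 and 929), Csf1r (59.6 and 276) and Tyrobp (13.2 and 98.4). Ptprc, which defines the lineage, read 4.8 and 14.4. Laptm5 (949 and 490) held most of the undifferentiated sum and was the only 1 of the 5 with a lower signal at day 15. The 8 stem cell markers read 1101 to 7838 on the undifferentiated array and 152.6 to 3729 at day 15 (summed signal 39766 and 19779). All 8 had a lower signal at day 15, and 5 of them were at least 2-fold lower. The lists overlap with the pathway lists in Kdr, Tyrobp and Ptprc. The part of these cell types in the family's differences was not tested.

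**Figure D4:**
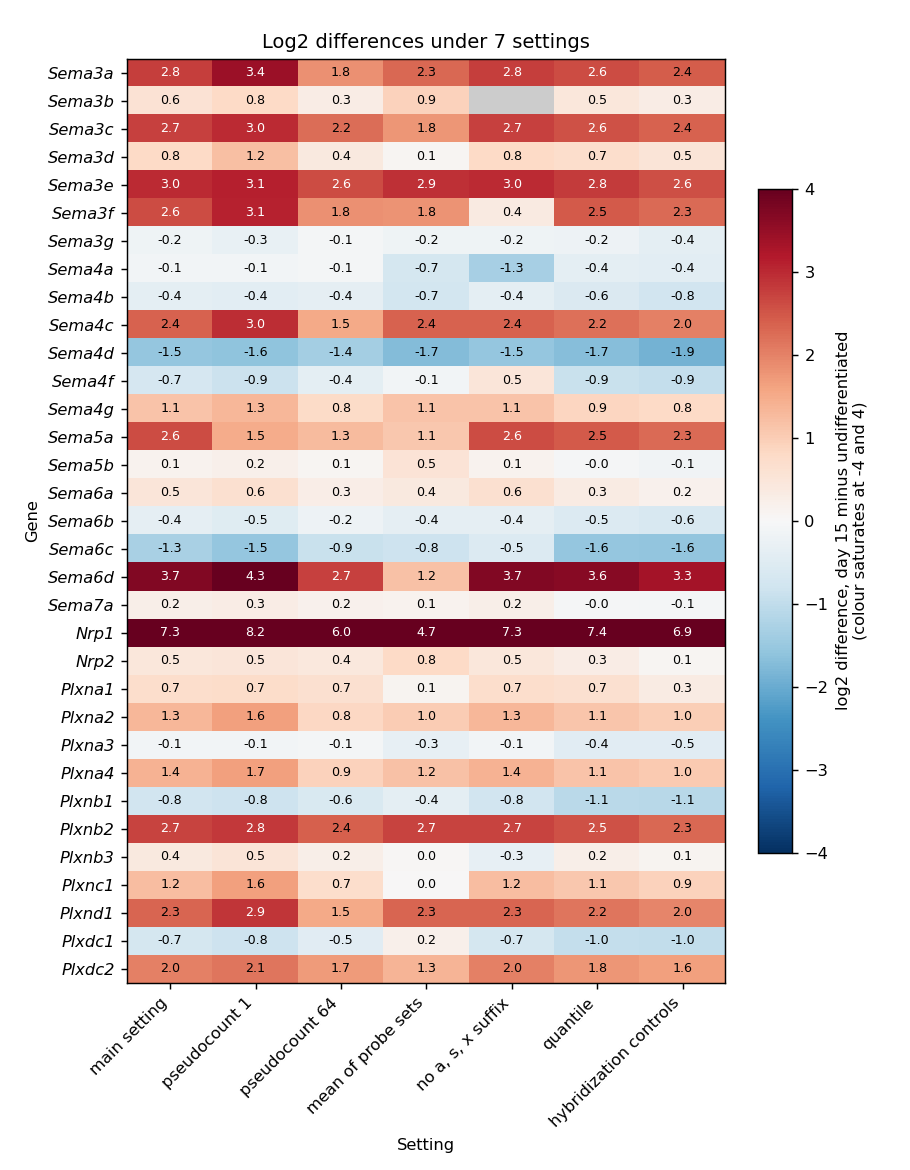
Log2 difference of each of the 33 genes, day 15 minus undifferentiated, under the main setting and 6 alternatives (columns), printed in each cell and coloured from blue (lower) to red (higher), with grey where no probe set was left. Nrp1 stays at 4.73 or more in every column, and Sema4d stays between -1.89 and -1.37.

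The deposited scaling set the direction of some small differences. Quantile normalization moved the median gene above the filter by -0.13 on the log2 scale, and scaling on the 18 bacterial hybridization controls moved it by -0.36. The members' median lay 0.64 above that of all genes as deposited, 0.68 above with quantile normalization and 0.66 above with the control scaling. Of the 16 members called at 2-fold above the filter, 10 were past 2-fold under all 7 settings of pseudocount, probe set choice and scaling: Nrp1, Plxdc2, Plxnb2, Plxnd1, Sema3a, Sema3c, Sema3e, Sema4c, Sema4d and Sema6d. The other 6 were Plxna2, Plxna4, Plxnc1, Sema3f, Sema4g and Sema6c, which kept their sign in all 7.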

How the data were processed

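Total RNA from 1 culture per condition was labelled and hybridised to Affymetrix mouse arrays, per the labels' protocols. The deposited values are linear intensity, and the summarising software is not given in the sources used here. With 2% trimmed at each end, both arrays had a mean of 250.0, so the authors had scaled their intensity values to a common level before deposit. Of 45101 probe sets, 64 controls were set aside, 34945 named 1 gene, 932 named several and were not used, and 9160 had no name in the platform annotation. Symbols and chromosomes came from RefSeq assembly GRCm38.p6 and promoter sequences from its promoter table. The files name no genome build.

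Values were taken to log2(signal + 16) with Python 3.11.15, numpy 2.4.6 and pandas 2.3.3, and genes were called at 2-fold. The call step was checked on simulated data with planted differences larger than 2-fold, a single probe set per gene and no filter. That check says nothing on calls near 2-fold, on the filter or on the choice of probe set. Alternatives covered the filter, the pseudocount, the probe set rule, the scaling and the fold. The genes named are all members, the pathway genes past 2-fold, some others of those lists chosen after their values were seen, and marker lists by counts. Members and lists were chosen with earlier results of these data known. The ligand and receptor pairs, the promoters shown and the chromosome 5 stretch were chosen after the values were seen.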

Additional observations from a re-analysis of the deposited data

How the results depend on the processing

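With 1 array per condition, no replicate could be left out and no paired analysis was possible because each group holds a single array. The count of members at least 2-fold higher (14) lay between 10 and 15 under 9 of the alternatives, and was 4 with the filter at the 75th percentile, which left 8 members, and 7 with the requirement, added after seeing the data, that both arrays lie above the control bound. Of all genes passing each filter, 11.3% to 17.6% were higher under the alternatives at 2-fold, and 6.54% at 4-fold. The count at least 2-fold lower (2, where 8.41% of genes were) was 1 above the 75th percentile (9.79% of genes). It was also 1 with a pseudocount of 64 (5.7%) and with the mean over probe sets (6.56%). It was 3 with quantile normalization (11.4%) and with hybridization control scaling (18.8%), and 0 at 4-fold (0.569%). The median log2 difference (0.64) was 1.35 above the 75th percentile, 0.74 when the filter used the control bound, 0.75 with a pseudocount of 1, 1.02 with the mean over probe sets, 1.19 without suffixed (a, s, x) probe sets, 0.30 with hybridization control scaling, and 0.32 with both arrays above the control bound. No member called at 2-fold changed sign. Among members within 2-fold, Plxdc1 turned to 0.20 with the mean over probe sets, and without suffixed probe sets Plxnb3 turned to -0.33 and Sema4f to 0.48. Sema3f fell to 0.37 without suffixed probe sets, since the probe sets left read below the controls, and Sema3b had none left. The Sema5a value moved from 2.60 to 1.49 with a pseudocount of 1, because another probe set then represented the gene. Signals near the controls limit what can be said of Sema3b, Sema3d, Sema3g, Sema5a, Sema5b, Sema6a, Sema6b, Plxnb3 and Plxnc1.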
